A study of Mus musculus with 6 samples.

Results

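The fatty acid oxidation genes described here are 33 mouse genes of the mitochondrial and peroxisomal beta-oxidation pathways, found by matching their symbols to the Ensembl identifiers of a table of 23154 genes. RNA was sequenced from stable derivatives of RAW264.7, a macrophage-like mouse cell line. The NUR77 line carried pINDUCER20b-HA-NUR77, from which doxycycline induces the HA-tagged form of NUR77, the nuclear receptor encoded by Nr4a1, and the GFP line carried pINDUCER20b-GFP. All dishes were given 1 µg/mL of doxycycline 24 hours after seeding and exposed to it for 18 hours, and 3 dishes of each line were sequenced. Each group was therefore 1 stable line, so that line and transgene cannot be told apart, and p-values measure the spread between dishes. The labels do not say whether a line was 1 clone. By its title, the series asks about metabolism in mitochondria and about inflammation in macrophages.

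Fatty acids enter oxidation as acyl-CoA esters made by acyl-CoA synthetases. Long-chain esters cross into mitochondria through the carnitine shuttle, where a cycle of dehydrogenation, hydration, dehydrogenation and thiolysis shortens them and releases acetyl-CoA. Electrons of the first step pass through the electron transfer flavoprotein to the respiratory chain. Peroxisomes run a related cycle on very-long-chain and branched chains and pass the shortened products on to mitochondria. In macrophages, the pathway is known from work on alternative activation and on the handling of lipid taken up from outside.

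Levels are given as normalized reads, which are a gene's reads scaled to 10000000 counted reads in each library. Depth was 11199468 to 14354453 counted reads in the NUR77 libraries and 14350490 to 15929487 in the GFP libraries. Nr4a1 stood at 288, 314 and 297 normalized reads in the NUR77 libraries, against 170, 148 and 161 in the GFP libraries. Reads of the transgene and of the mouse gene are not separated in these values. All 10 macrophage markers examined were detected, and their summed level was 29350 to 30925 in the NUR77 line and 77232 to 78725 in the GFP line. Of the 10, 2 were called higher (Itgam and Fcgr1) and 6 lower, where 38.4% of all tested genes were higher and 28.3% lower. Ptprc and Spi1 were not called. The largest differences were in Lyz2 (mean 2566 in NUR77, 26664 in GFP), Mpeg1 (1019 and 16580) and Cd68 (5136 and 14010). The part of these markers in the results was not tested. In bulk RNA, fewer cells of a type and less RNA per cell cannot be told apart. The 20 skeletal muscle markers summed to 188 to 497 in the NUR77 libraries and 409 to 464 in the GFP libraries, with 1 of 5 tested higher (Tnni1) and 1 lower (Tnni2). Without these troponin genes, a choice made after the values were seen, the sum of the other 18 was 299 in NUR77 replicate 1, 78.7 and 68.4 in the other NUR77 libraries, and 67.3 to 76.0 in the GFP libraries. Muscle is rich in fatty acid oxidation enzymes, and the part of muscle RNA in the results was not tested. Without NUR77 replicate 1 the calls below numbered 10 higher and 6 lower, with Amacr lost. With each of the other libraries left out, 6 were lower as well. Adipocyte markers summed to 2.79 or less and the 4 hepatocyte markers found in the table to 1.96 or less in every library.

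Of the 33 genes, 31 averaged at least 10 normalized reads across the 6 libraries and were tested. In the limma comparison of NUR77 with GFP, 10 of the 31 rose and 7 fell at an adjusted p under 0.05, so that 17 were called, where 66.7% of all 11201 tested genes were called. Over all tested genes 38.4% were called higher and 28.3% lower. All NUR77 values lay to one side of all GFP values in 19 of the 31 genes, against 70.6% of all tested genes. The median log2 fold change was -0.01 over the 31 genes and 0.06 over all tested genes. Changes were small: 27 of the 31 genes had an absolute log2 fold change under 0.5. Only Acsl5, Acot9 and Acaa1a, 3 of 31, were called and changed by 2-fold or more, against 13.9% of all tested genes.

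**Figure D1:**
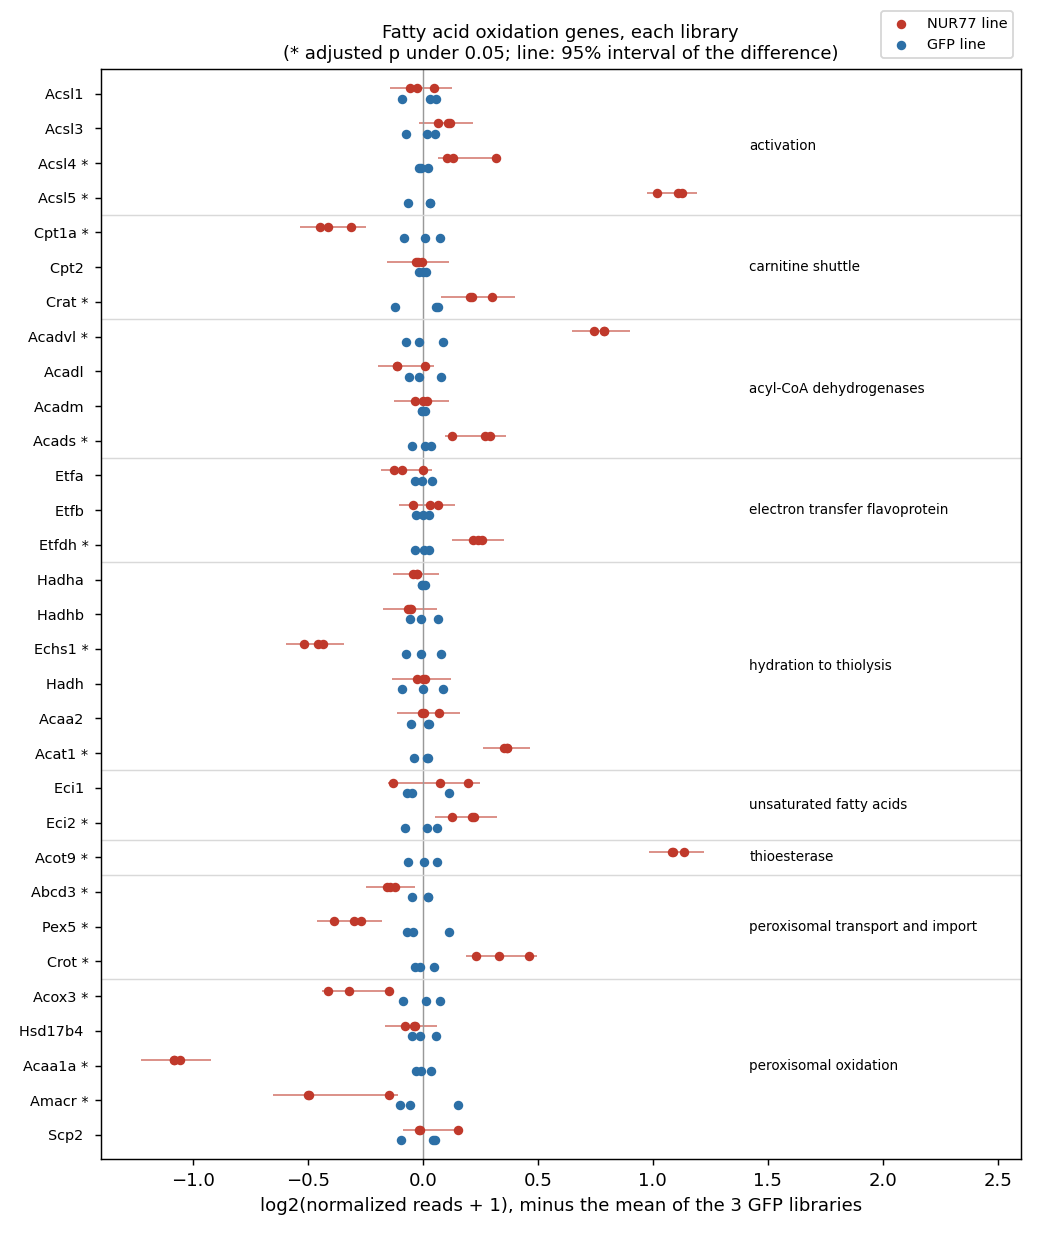
Each tested gene in each library, as log2(normalized reads + 1) minus the mean of the 3 GFP libraries, ordered by role. Red points are the NUR77 libraries, blue points the GFP libraries, the red line is the 95% interval of the difference, and a star marks an adjusted p under 0.05; Acsl5, Acot9 and Acadvl lie to the right of their GFP points, Acaa1a lies to the left, and most other genes lie within 0.5 of the GFP mean.

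By compartment, the counts ran as follows. Among the 23 tested genes of activation and of the mitochondrial pathway, 9 rose and 2 fell, with a median log2 fold change of 0.02. Among the 8 tested peroxisomal genes, transport and import included, 1 rose and 5 fell, with a median of -0.22. For comparison, 38.4% of all tested genes were called higher and 28.3% lower. Eci2, found in mitochondria and peroxisomes, was counted with the 23. Under the trimmed-mean scaling (TMM), which moved the median of all genes by -0.065 on the log2 scale, 6 of the 23 rose and 4 fell, with a median of -0.04, and the peroxisomal counts were again 1 and 5. With any 1 of the 6 libraries left out, the peroxisomal counts were 1 and 4. The 10 other tested genes of peroxisomal oxidation, which are not members, had 3 higher and 4 lower, with a median of -0.05. The difference between the compartments was not tested as such.

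**Figure D2:**
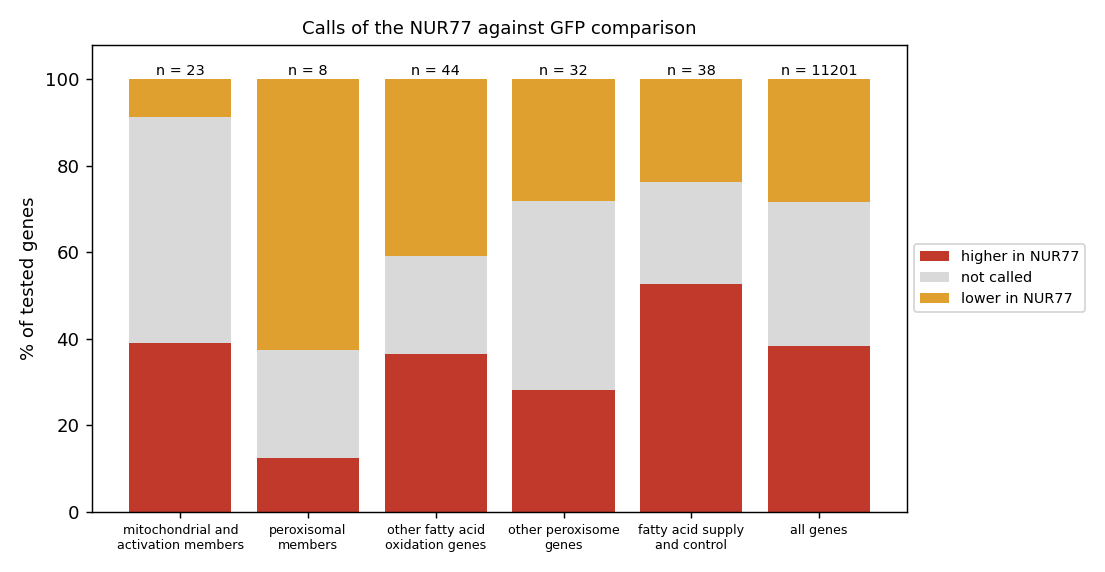
Share of tested genes that were called higher (red), not called (grey) or called lower (orange) in the NUR77 line, with the number tested above each bar. The peroxisomal members have 5 of 8 genes called lower, and the mitochondrial and activation members 2 of 23, against 28.3% of all tested genes.

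Promoters of the fatty acid oxidation genes were read from RefSeq sequences of GRCm38.p6, which held 31 windows for 27 of the 33 genes, each from 250 bases before to 50 after a start site. NUR77 binds as a monomer to AAAGGTCA, and PPAR and other receptors of the family bind motifs built on the core AGGTCA, which AAAGGTCA contains. On both strands, AAAGGTCA was in 0 of the 31 windows and in 1.51% of all 32817 promoter windows. The core AGGTCA was in 5 of the 31 windows and in 16.3% of all windows. Of those 5, 3 belong to genes that changed, Acadvl, Cpt1a and Echs1, where 66.7% of all tested genes were called. The GC box GGGCGG was in 23 of the 31 windows and in 35.6% of all windows; the median GC content was 61.3% in the 31 windows and 52.7% in all. The 3 promoters of changed genes that hold the core are shown upstream of the start, without annotated exons, with AGGTCA or its complement TGACCT in capitals: Acadvl at chr11:70015429-70015678 (minus strand), Cpt1a at chr19:3323051-3323284 (plus) and Echs1 at chr7:140116477-140116671 (minus). The last line is the stretch at chr5:30155163-30155247 (plus) between the opposed starts of Hadha and Hadhb, which encode the subunits of one enzyme, with GGGCGG in capitals.
Acadvl: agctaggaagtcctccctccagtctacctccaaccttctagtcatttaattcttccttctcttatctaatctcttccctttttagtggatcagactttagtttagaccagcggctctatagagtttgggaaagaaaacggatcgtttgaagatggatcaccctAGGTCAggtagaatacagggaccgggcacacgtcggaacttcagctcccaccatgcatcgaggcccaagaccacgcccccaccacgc
Cpt1a: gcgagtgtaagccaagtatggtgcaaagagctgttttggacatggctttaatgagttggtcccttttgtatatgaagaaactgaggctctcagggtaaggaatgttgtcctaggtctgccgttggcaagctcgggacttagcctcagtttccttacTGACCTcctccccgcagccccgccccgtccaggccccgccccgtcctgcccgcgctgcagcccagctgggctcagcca
Echs1: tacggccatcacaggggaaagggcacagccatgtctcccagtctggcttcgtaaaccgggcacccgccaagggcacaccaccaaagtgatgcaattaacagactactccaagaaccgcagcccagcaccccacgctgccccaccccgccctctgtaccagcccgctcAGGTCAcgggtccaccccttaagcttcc
Hadha-Hadhb: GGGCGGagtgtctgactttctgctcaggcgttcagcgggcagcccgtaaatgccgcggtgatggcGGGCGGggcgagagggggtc
The core lies on the gene's own strand in Acadvl and Echs1 and on the opposite strand in Cpt1a. Acadvl rose, Cpt1a and Echs1 fell, so that the genes with the core went both ways.

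The long-chain acyl-CoA synthetases, which activate fatty acids, were led by a rise of Acsl5. Acsl5 (ENSMUSG00000024981, chromosome 19, 55251938 to 55297720, plus strand, mm10) stood at 4114, 4065 and 3820 normalized reads in the NUR77 libraries, against 1802, 1925 and 1927 in the GFP libraries. The lowest NUR77 library was well above the highest GFP library, and the mean ratio was 2.12 (limma adjusted p = 7.5e-12, with a log2 fold change of 1.08 and an SE of 0.05). Zdhhc6, a palmitoyltransferase gene on the opposite strand that overlaps Acsl5, averaged 1820 in the NUR77 line and 978 in the GFP line. Because no source used here gives the strand setting of the counting, and because 4.78% of the 50-base words of Acsl5 transcripts recur in other genes, mostly Zdhhc6, some reads of that part may belong to either gene.

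Acsl4, which prefers arachidonic acid, stood at 3733, 3281 and 3227 in the NUR77 libraries and 3046, 2983 and 2965 in the GFP libraries. Its log2 fold change was 0.18 (limma adjusted p = 0.0083), with NUR77 replicate 1 the highest library, and the call was lost under TMM scaling (0.12, adjusted p = 0.071). Acsl3, found on lipid droplets, averaged 933 ± 18.1 in the NUR77 line and 872 ± 39.5 in the GFP line (SD, n = 3 each). All 3 NUR77 libraries were above the GFP libraries, but the difference did not pass the test (0.10, limma adjusted p = 0.12). Acsl1, the main synthetase of heart and fat tissue, was at 507 ± 19.1 and 511 ± 27.7, with overlapping lines and an interval of the log2 difference of -0.15 to 0.13.

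Per kb of annotated exon, the order of the synthetases changed between the lines. Acsl5 made up 47.9% ± 0.932 of the summed per-kb level of the 4 genes in the NUR77 line and 32.5% ± 0.881 in the GFP line (SD, n = 3 each). Acsl4 made up 36.8% ± 1.48 in the NUR77 line and 46.6% ± 1.21 in the GFP line. Acsl5 was thus the leading synthetase transcript in every NUR77 library and Acsl4 in every GFP library. Acsl1 was the lowest of the 4 in both lines, at 2.82% in the NUR77 line and 4.10% in the GFP line. Exon lengths are those of all annotated isoforms together, so the shares depend on which isoforms the cells use.

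**Figure D3:**
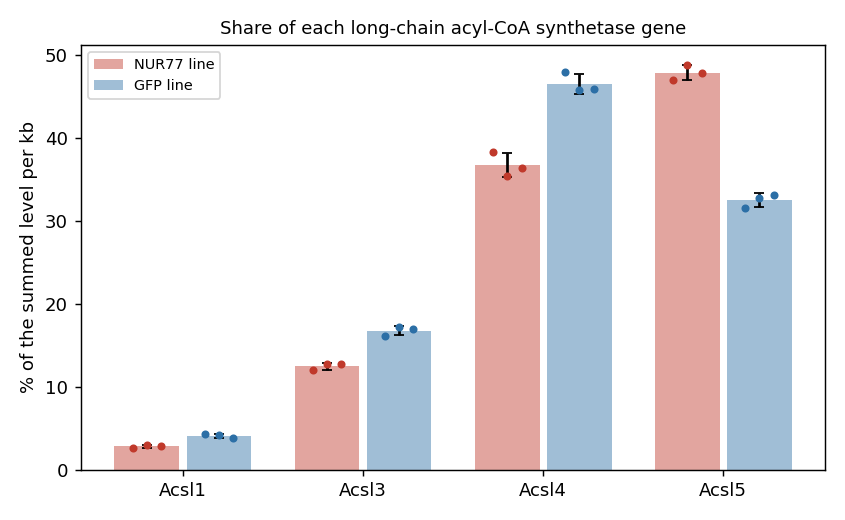
Share of each of the 4 long-chain acyl-CoA synthetase genes in their summed level per kb, with bars as the mean of 3 libraries, error bars as SD and points as libraries. Acsl5 is the largest share in the NUR77 line (47.9%) and Acsl4 in the GFP line (46.6%).

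Of the carnitine shuttle, Cpt1a fell. Cpt1a encodes the malonyl-CoA-sensitive acyltransferase of the outer membrane that commits long chains to mitochondria. It stood at 382, 348 and 356 normalized reads in the NUR77 libraries, against 449, 500 and 478 in the GFP libraries. The lines did not overlap, and the NUR77 mean was 0.762 of the GFP mean (log2 fold change -0.39, SE 0.07, limma adjusted p = 8.3e-05). Cpt2, its partner at the inner membrane, was at 370, 367 and 374 in the NUR77 libraries and 371, 379 and 375 in the GFP libraries, with an interval of the log2 difference of -0.15 to 0.12. The ratio of Cpt1a to Cpt2 per kb was 0.306 ± 0.0152 in the NUR77 line and 0.396 ± 0.0173 in the GFP line (SD, n = 3 each). Crat, the carnitine acetyltransferase of short chains, rose to 319 ± 12.1 in the NUR77 line, against 270 ± 19.4 in the GFP line (log2 fold change 0.24, limma adjusted p = 0.011). This call was lost under TMM scaling (adjusted p = 0.052) and without GFP replicate 2 (adjusted p = 0.063). Slc25a20, the carnitine carrier of the inner membrane, was at 148 ± 12.7 and 145 ± 7.86 (limma adjusted p = 0.83). The muscle-type Cpt1b had at most 1 read in any library. The paralog Cpt1c, under the filter, averaged 10.4 in the NUR77 line and 7.87 in the GFP line.

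The acyl-CoA dehydrogenases, which take the first oxidative step on successive chain lengths, were represented by 4 members, of which those for the longest and the shortest chains rose. Acadvl, for very-long chains (ENSMUSG00000018574, chromosome 11, 70010183 to 70015411, minus strand), stood at 880, 880 and 854 normalized reads in the NUR77 libraries, against 540, 484 and 503 in the GFP libraries. The gap between the lines was many times the spread within them, at a mean ratio of 1.71 (limma adjusted p = 4.7e-09, with a log2 fold change of 0.77 and an SE of 0.06). Its 3′ end overlaps that of Dvl2 on the opposite strand, with 26.9% of its 50-base words, and Dvl2 averaged 307 in the NUR77 line and 589 in the GFP line. Acads, for short chains, rose to 638 ± 39.7 in the NUR77 line, against 544 ± 16.4 in the GFP line (log2 fold change 0.23, limma adjusted p = 0.0039). The members Acadm and Acadl did not pass the test. Acadm, for medium chains, was at 553 ± 10.5 and 555 ± 3.01, with an interval of the log2 difference of -0.13 to 0.12. Acadl, for long chains, was at 1157 ± 57.6 and 1217 ± 59.2 (-0.07, limma adjusted p = 0.26), and was called lower with TMM scaling (-0.14, adjusted p = 0.04) and with upper-quartile scaling (adjusted p = 0.048). Of 11 other tested genes of acyl-CoA metabolism, which include further acyl-CoA dehydrogenases, 5 rose and 3 fell. The shares over all tested genes were 38.4% and 28.3%.

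Among the genes that carry the electrons of this step onward, Etfdh, the oxidoreductase that hands them to ubiquinone, rose to 925, 901 and 915 normalized reads in the NUR77 libraries, against 790, 778 and 755 in the GFP libraries. The lines did not overlap (log2 fold change 0.24, SE 0.05, limma adjusted p = 7.4e-04). The flavoprotein subunit genes gave no call. Etfa was at 1254 ± 55.7 in the NUR77 line and 1318 ± 35.0 in the GFP line (-0.07, limma adjusted p = 0.24), and Etfb at 601 ± 22.3 and 593 ± 11.8 (0.02, adjusted p = 0.8). Etfa was called lower with each of the other 3 scalings (-0.14 with TMM, adjusted p = 0.032 to 0.047). Etfb shares 44.8% of its words with other annotated genes.

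The steps from hydration to thiolysis held 1 rise, 1 fall and 4 genes without a call. That is 33.3% called, against 66.7% of all tested genes (38.4% higher and 28.3% lower). Echs1, the short-chain enoyl-CoA hydratase, stood at 503, 525 and 532 normalized reads in the NUR77 libraries, against 760, 684 and 716 in the GFP libraries. Every NUR77 library was below every GFP library, with a mean 0.722 of that of GFP (log2 fold change -0.47, SE 0.06, limma adjusted p = 3.1e-06). Acat1, the mitochondrial acetoacetyl-CoA thiolase that also serves ketone body and isoleucine breakdown, stood at 1920, 1903 and 1916 in the NUR77 libraries, against 1511, 1505 and 1448 in the GFP libraries. It was 1.29-fold higher without overlap (log2 fold change 0.36, limma adjusted p = 4.9e-06).

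Hadha and Hadhb encode the subunits of the mitochondrial trifunctional protein, which carries out the last 3 steps on long chains. Hadha was at 1773, 1792 and 1796 normalized reads in the NUR77 libraries and 1820, 1839 and 1820 in the GFP libraries. The lines did not overlap, yet the difference was small and did not pass the test (-0.03, 95% interval -0.13 to 0.07, limma adjusted p = 0.58). Hadhb was at 719 ± 3.10 in the NUR77 line and 749 ± 32.7 in the GFP line (-0.06, limma adjusted p = 0.38). The per-kb ratio of Hadha to Hadhb was 1.88 ± 0.0199 in the NUR77 line and 1.85 ± 0.0896 in the GFP line (SD, n = 3 each). Hadhb shares 19.7% of its words with other genes, so reads can have been dropped from it. Hadh, the short-chain hydroxyacyl-CoA dehydrogenase, was at 613 ± 7.90 and 616 ± 37.8, and the thiolase gene Acaa2 at 383 ± 10.8 and 377 ± 11.2; the intervals of their log2 differences were -0.14 to 0.12 and -0.11 to 0.16.

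Unsaturated chains need extra enzymes. Eci2, an enoyl-CoA isomerase found in mitochondria and peroxisomes, rose to 506 ± 18.5 in the NUR77 line, against 444 ± 21.6 in the GFP line (log2 fold change 0.19, limma adjusted p = 0.017). It lost the call under all 3 other scalings (adjusted p = 0.1 under TMM) and without NUR77 replicate 2 (0.06) or GFP replicate 2 (0.078). The isomerase gene Eci1 was at 222 ± 25.0 and 214 ± 15.2 (limma adjusted p = 0.67). Decr1, the mitochondrial dienoyl-CoA reductase, was listed at 0 in all 6 libraries, where 3 reads over a group would have been 0.787 normalized reads in NUR77 and 0.658 in GFP. None of its 50-base words recur in other annotated transcripts. Its neighbour Nbn averaged 485 in the NUR77 line and 346 in the GFP line. Gapdh, which has many pseudogene copies, stood at 42.0 to 59.9 in NUR77 and 44.6 to 73.9 in GFP. Whether the absence of Decr1 reads lies with the cells or with the counting was not tested. Nbn and Gapdh were looked up after these values were seen.

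Acot9, a mitochondrial thioesterase that releases free fatty acids from acyl-CoA, rose by about as much as Acsl5, with overlapping intervals of the log2 fold change (0.98 to 1.22 for Acot9 and 0.98 to 1.19 for Acsl5). It stood at 1063, 1027 and 1028 normalized reads in the NUR77 libraries, against 505, 462 and 484 in the GFP libraries (chromosome X, 155262443 to 155297654, plus strand). The lines lay far apart, with a mean ratio of 2.15 (log2 fold change 1.10, SE 0.06, limma adjusted p = 2.5e-11). Acot10, a copy of Acot9, and 1 other gene share 15.2% of its words, so its absolute level is uncertain.

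Among the peroxisomal members, Acaa1a, the thiolase of the last step, had the lowest fold change. Acaa1a (ENSMUSG00000036138, chromosome 9, 119339676 to 119350299, plus strand) stood at 186, 186 and 189 normalized reads in the NUR77 libraries, against 393, 387 and 405 in the GFP libraries. The values hardly varied within a line, and the NUR77 mean was 0.474 of the GFP mean (log2 fold change -1.07, SE 0.07, limma adjusted p = 7.7e-10). Its near-identical neighbour Acaa1b fell as well, to 16.2 ± 4.07 in the NUR77 line, against 37.4 ± 2.64 in the GFP line (-1.18, limma adjusted p = 1.5e-04). How reads were divided between the copies is uncertain, as 12.4% of the words of Acaa1a recur in Acaa1b. Acaa1a also overlaps Myd88 on the opposite strand, which averaged 426 in the NUR77 line and 515 in the GFP line.

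The other peroxisomal falls were smaller. Acox3, an acyl-CoA oxidase of branched chains, was at 618, 658 and 741 normalized reads in the NUR77 libraries and 865, 774 and 829 in the GFP libraries (log2 fold change -0.29, limma adjusted p = 0.0013). It lies among genes that also fell: of the 24 tested genes nearest to it, 14 were called lower and 2 higher, with a median log2 fold change of -0.20, where 95% of such neighbourhoods had medians between -0.21 and 0.34. Pex5, the receptor that imports most peroxisomal matrix proteins, was at 477, 440 and 466 in the NUR77 libraries and 622, 547 and 558 in the GFP libraries (-0.32, limma adjusted p = 4.6e-04). Every NUR77 library was below the GFP libraries for both genes.

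Abcd3, a transporter of acyl-CoA into peroxisomes, was at 1152 ± 13.4 in the NUR77 line and 1270 ± 35.0 in the GFP line (log2 fold change -0.14, limma adjusted p = 0.022). Leaving out NUR77 replicate 2, GFP replicate 1 or GFP replicate 3 ended that call (adjusted p = 0.062, 0.071 and 0.094). Amacr, the racemase that prepares branched chains for oxidation, was at 74.1, 94.7 and 74.0 in the NUR77 libraries and 101, 117 and 98.0 in the GFP libraries (-0.38, limma adjusted p = 0.016). The lines came close, and the call was lost without NUR77 replicate 1 (-0.32, adjusted p = 0.054), NUR77 replicate 3 (adjusted p = 0.056) or GFP replicate 2 (adjusted p = 0.075). Crot, which makes medium-chain carnitine esters for export, was the 1 gene called higher among the 8 counted as peroxisomal above, at 400, 429 and 470 in the NUR77 libraries, against 332, 338 and 352 in the GFP libraries (0.34, SE 0.07, limma adjusted p = 5.0e-04). Hsd17b4, the D-bifunctional protein, was at 820 ± 13.0 and 850 ± 31.2, and Scp2, which encodes a sterol carrier and a thiolase, at 1297 ± 88.5 and 1259 ± 71.0 (limma adjusted p = 0.42 and 0.55). Scp2 shares 29.7% of its words with a pseudogene and 1 other gene. Ehhadh, the L-bifunctional protein of peroxisomes, had 1 read in each line, so that no comparison could be made.

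The fatty acid oxidation genes spanned about the same range of levels in both lines. Per kb of exon, the mean of a tested gene ran from 31.1 for Amacr to 822 for Acsl5 in the NUR77 line, and from 40.4 for Amacr to 718 for Etfa in the GFP line. Etfa, at 684 per kb in NUR77, was next to Acsl5 there, and Acsl4 followed at 632. Cpt1a was near the lower end at 47.4 per kb in NUR77 and 62.2 in GFP, beside Acsl1 at 48.4 and 48.8. Summed over all members, the level was 28699 ± 540 normalized reads in the NUR77 line and 25433 ± 306 in the GFP line (SD, n = 3 each). The synthetases held 8854 ± 410 of that sum in NUR77 and 6266 ± 64.7 in GFP, so that they account for most of the gap between the sums.

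**Figure D4:**
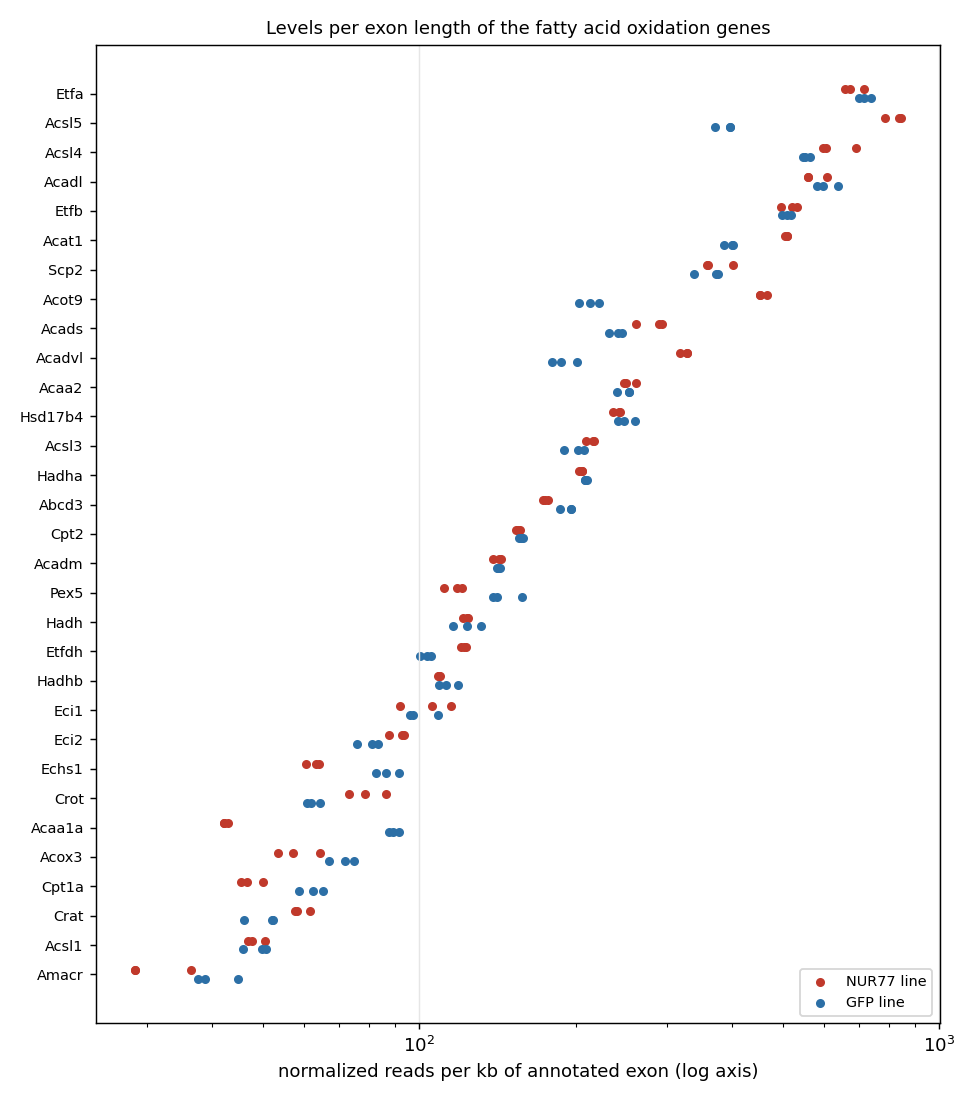
Level of each tested gene in each library per kb of annotated exon, on a log axis, with red points for the NUR77 libraries and blue points for the GFP libraries. Genes are ordered by their mean, from Amacr at the bottom to Etfa at the top; Acsl5, Acot9, Acadvl and Acaa1a show the widest gaps between the lines.

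Other enzymes of fatty acid oxidation and ketone body use, a list of 57 genes of which 44 were tested, went both ways, with 16 higher and 18 lower and a median log2 fold change of 0.02. That is 77.3% called, against 66.7% of all tested genes (38.4% higher and 28.3% lower). Acsbg1, an acyl-CoA synthetase of the bubblegum family, rose to 296, 356 and 399 normalized reads in the NUR77 libraries, against 30.7, 38.3 and 33.3 in the GFP libraries (log2 fold change 3.32, limma adjusted p = 5.0e-13). Acss1, the mitochondrial acetyl-CoA synthetase, fell to 7.14, 13.2 and 11.9, against 285, 259 and 269 in GFP (-4.57, limma adjusted p = 1.3e-12). Abcd2, a peroxisomal transporter of very-long-chain acyl-CoA, fell to 87.5, 98.9 and 100.2 in the NUR77 libraries, against 692, 655 and 643 in GFP (-2.78, limma adjusted p = 1.4e-14). The lines lay far apart in these 3 genes.

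Hsdl2, a peroxisomal dehydrogenase-like gene, rose (log2 fold change 1.03, limma adjusted p = 6.3e-09). The thioesterase gene Acot1, whose near-identical copies make it uncertain, rose to 22.6 ± 4.52 in the NUR77 line, against 9.81 ± 4.15 in the GFP line (1.18, limma adjusted p = 0.0022). Acot2, looked up after its values were seen, was higher in level and fell, to 163 ± 29.9 in NUR77, against 285 ± 3.76 in GFP (-0.82, limma adjusted p = 4.1e-06). Bdh2 fell to 4.84 ± 1.38 in the NUR77 line, against 24.0 ± 3.66 in the GFP line (-2.12, limma adjusted p = 6.3e-06). Bdh2 passed the filter only through the GFP line, and Acot1 only through the NUR77 line, so their folds are uncertain. Named after its values were seen, Oxct1, the enzyme that activates ketone bodies, fell to 3573 ± 134 in the NUR77 line, against 5713 ± 78.2 in the GFP line (-0.68, limma adjusted p = 1.5e-09).

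The remaining peroxisome genes, 32 tested of 37 listed, had 9 higher, 9 lower and a median log2 fold change of -0.02, with 56.3% called against 66.7% of all tested genes. Of the 15 tested assembly factors, 1 rose and 5 fell, where 38.4% of all tested genes rose and 28.3% fell. Pex10, a ubiquitin ligase of the import machinery, fell to 139 ± 9.46 in the NUR77 line, against 282 ± 9.44 in the GFP line (-1.02, limma adjusted p = 1.5e-08). Prdx5, a peroxiredoxin of mitochondria and peroxisomes, rose to 1980 ± 92.3, against 904 ± 73.8 (1.13, limma adjusted p = 6.5e-11). Hao1, a glycolate oxidase best known from liver, rose to 44.9 ± 6.49, against 2.00 ± 1.32 (4.03, limma adjusted p = 2.1e-08). It had only 3, 1 and 5 reads in the GFP libraries and passed the filter only through the NUR77 line, so its fold is uncertain.

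Genes of fatty acid supply and control, 38 tested of 51 listed, had 20 higher and 9 lower, with a median log2 fold change of 0.15. Called genes made up 76.3%, against 66.7% of all tested genes (38.4% higher and 28.3% lower). Under TMM scaling, 17 were higher and 11 lower. Cd36, a fatty acid and lipoprotein scavenger receptor, stood at 14845, 12502 and 11472 normalized reads in the NUR77 libraries, against 3302, 3121 and 3265 in the GFP libraries, 4.01-fold higher (log2 fold change 1.99, limma adjusted p = 1.0e-10). The fatty acid binding protein genes went opposite ways. Fabp4 rose to 96.3 ± 16.5 in the NUR77 line, against 14.7 ± 0.303 in the GFP line (2.62, limma adjusted p = 8.3e-10), and Fabp5 fell to 344 ± 36.6, against 845 ± 80.8 (-1.29, adjusted p = 6.5e-10). The transport protein genes Slc27a1 and Slc27a3 fell (-1.33 and -1.14, limma adjusted p = 1.8e-08 and 0.0031). Slc27a3 averaged 9.64 in the NUR77 line and 22.6 in the GFP line, and passed the filter only through the GFP line. Lipa, the lysosomal acid lipase that frees fatty acids from taken-up lipoprotein, fell to 2837 ± 59.1, against 5978 ± 236 in GFP (-1.07, limma adjusted p = 4.1e-12). Angptl4 fell (-1.04, limma adjusted p = 4.0e-08).

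**Figure D5:**
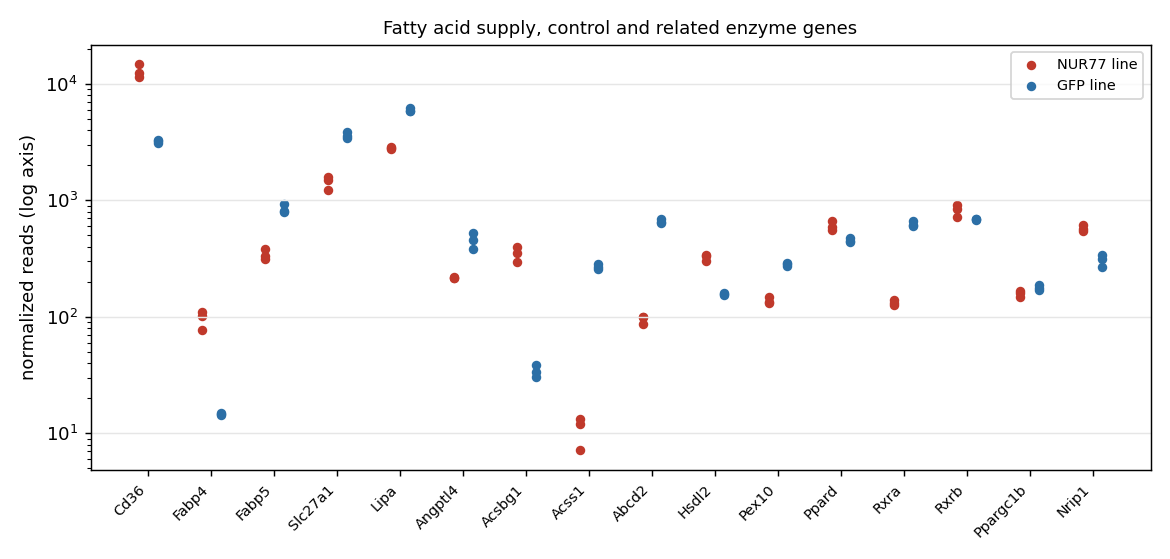
Normalized reads on a log axis for genes of fatty acid supply, control and related enzymes, with 1 point per library, red for NUR77 and blue for GFP. Cd36, Fabp4 and Acsbg1 lie higher in the NUR77 line, and Fabp5, Slc27a1, Lipa, Acss1, Abcd2 and Rxra lie lower.

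Nuclear receptors and their coactivators that control these enzymes were named whatever their call; of 15 listed, 10 were tested, 7 rose and 1 fell, where 38.4% of all tested genes rose and 28.3% fell. Rxra, the partner receptor of PPARs and of NUR77, fell to 128, 139 and 131 normalized reads in the NUR77 libraries, against 601, 662 and 616 in the GFP libraries (log2 fold change -2.23, limma adjusted p = 8.7e-14). Rxrb rose (0.24, limma adjusted p = 0.0067). Ppard rose to 601 ± 54.7 in the NUR77 line, against 456 ± 17.6 in the GFP line (0.39, limma adjusted p = 1.0e-04), and Esrra, which encodes the oestrogen-related receptor alpha, rose by less (0.26, adjusted p = 0.01; 0.073 without NUR77 replicate 2). Ppara, Esrrg and Rxrg had no read in any library, and Pparg averaged 1.16 in NUR77 and 2.66 in GFP. Ppargc1a, the coactivator PGC-1 alpha, had no read in the NUR77 line and 80 reads in the GFP line, at least 22.3-fold lower (3 reads over the group); it was under the filter and not tested.

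Ppargc1b was at 159 ± 10.3 in the NUR77 line and 179 ± 7.92 in the GFP line (-0.17, limma adjusted p = 0.11), and was called lower with each of the other 3 scalings (adjusted p = 0.032 to 0.036). The corepressor genes Nrip1 (0.92, limma adjusted p = 4.7e-08) and Ncor1 (0.28, adjusted p = 2.0e-04) rose, as did Pprc1 (0.29, adjusted p = 3.0e-04). Lpin1 was at 0.10 (adjusted p = 0.14).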

How the data were processed

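Poly(A) RNA from 3 NUR77 and 3 GFP dishes was sequenced from strand-specific libraries, per the labels' protocols. For mm10 genes the deposited log2 values came as separate columns for each library. TopHat2 2.1, HTSeq and DESeq2 are named in the submitters' processing notes, without roles. The strand setting of the counting was not given in the sources used here, nor was the release of the annotation. Undoing the log and subtracting 1 gave values that summed to 10000000 per library and were whole multiples of 1 read (100% within 0.1 read), so that 1 read was 0.6278 to 0.8929 normalized reads. Limits of 3 reads and 95% intervals cover counting or replicate error only.

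GENCODE M21 (GRCm38) named 22872 of the 23154 identifiers and gave coordinates and exon lengths. Shared sequence was the percent of a gene's 50-base words found in transcripts of other genes. Neighbours were the 12 tested genes on either side.

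The test was limma 3.58.1 (R 4.3.3) with trend and robust moderation on log2(normalized reads + 1) in all 6 libraries, without covariates, for 11201 genes with a mean of 10 or more, with Benjamini-Hochberg adjustment over all of them and a threshold of 0.05. The fold scale understates changes of low genes. The script was tested on simulated data. The members and lists were chosen with earlier results of these data known. All members were named, and of the other lists the called genes with an absolute log2 fold change of 1 or more and the receptors and coactivators; exceptions are stated, and some of these genes are not reported here. Of those lists, 56 of 57, 35 of 37 and 51 of 51 genes were matched. Alternatives were pseudocounts of 0.5 and 5, no filter, a filter at 50, 3 scalings, no trend, limma-voom, a replicate block, and each library left out.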

Additional observations from a re-analysis of the deposited data

How the results depend on the processing

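Of the 17 called fatty acid oxidation genes, 12 kept direction and call under all 16 alternatives, and 5 (Acsl4, Crat, Eci2, Abcd3 and Amacr) lost the call under at least 1; Acsl4 did so also without the trend (adjusted p = 0.053). Of the 14 not called, Acadl and Etfa passed under other scalings. No called value changed sign. Across alternatives other than leaving out a library, 7 to 10 members were called higher and 7 to 9 lower, and with each library left out 8 to 10 higher and 6 lower. Over all genes, 4305 rose and 3170 fell in the main comparison, and 3682 rose and 3717 fell under TMM scaling. The counts of the other lists stayed within 1.5 times their main value under these alternatives.

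The replicate numbers did not pair the libraries: same-numbered NUR77 and GFP libraries had correlations of their deviations of 0.002, 0.114 and 0.045. With the replicate block, 10 members were called higher and 7 lower, and 4365 and 3220 of all genes. Decr1, Ehhadh, Cpt1b, Cpt1c, Pparg and Ppargc1a were under the filter on low values and have no test in the main comparison. Decr1 and Ehhadh, with no more than 1 read in a line, allow no comparison at this depth.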
